A study of Mus musculus with 10 samples.

Results

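The SR and hnRNP splicing factor genes were examined in mouse hippocampus. They were taken as the protein-coding genes whose names begin with Srsf and a digit, or with Hnrnp, and whose mean over the 10 libraries was at least 0.5 FPKM (fragments per kilobase of gene length, scaled to the size of the library). This gave 31 genes, 11 Srsf and 20 Hnrnp, of the 52636 in the table and of the 15471 tested. No protein-coding gene of these names was lost to the limit. The lowest gene taken was Hnrnpr, at a mean of 4.41 FPKM, and the only other matching names, the processed pseudogenes Hnrnpa1l2-ps and Hnrnpa1l2-ps2, had 1 and 4 reads over all libraries. The study compared 5 libraries from C57BL/6 mice with the genotype Tshr-/-, which lack the thyrotropin receptor gene, with 5 from wild-type C57BL/6 mice, all 3 months old. The labels give neither the deleted part of Tshr, nor the sex, nor any hormone treatment. The libraries are called biological replicates, without saying whether each is 1 animal, so p-values measure the spread between these libraries only.

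SR proteins carry RNA recognition motifs and a tail of alternating serine and arginine. They bind exons, recruit the early spliceosome and, as a rule, promote exon inclusion, and their phosphorylation by the Srpk and Clk kinases sets where they sit and when they act. The hnRNPs are a looser group of abundant nuclear proteins that coat nascent transcripts. Many of them oppose SR proteins at exons, and others act in mRNA export, transport, decay and translation. In neurons both groups take part in the alternative splicing of receptors, channels and synaptic proteins. Many SR and hnRNP genes limit their own output through alternative exons or introns that expose the transcript to nonsense-mediated decay.

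Read numbers rebuilt from the FPKM values ran from 25744854 to 28332278 per Tshr-/- library and from 23899650 to 33529811 per wild-type library. Between 443 and 13605 of them fell on a given Srsf or Hnrnp gene in a given library, the fewest on Srsf12 and the most on Hnrnpa2b1. Tshr itself was near the limit of detection, with 0, 0, 0, 5 and 2 reads in Tshr-/- libraries 1 to 5 and 9, 12, 7, 2 and 2 reads in wild-type libraries 1 to 5. Libraries 4 and 5 of the genotypes are thus not told apart by this gene. The means were 0.00861 ± 0.0136 and 0.0371 ± 0.0221 FPKM (SD, 2-sided exact permutation p = 0.0556), and reads outside the deleted part would check nothing. The libraries held hippocampal neuron markers (10 genes, none at 0) at a summed 202 to 316 FPKM in Tshr-/- and 298 to 414 FPKM in wild type. Neighbouring tissue varied as well. The 10 meninges and fibroblast markers, none at 0, summed to 16.3 to 51.8 FPKM in Tshr-/- and 11.1 to 24.3 FPKM in wild type, with 9 of 10 higher in Tshr-/-, 4 of them at an unadjusted limma p below 0.05. The sum of 15 thalamus and habenula markers was 38.8 to 286 FPKM in Tshr-/- and 23.7 to 144 FPKM in wild type, with 1 gene at 0 in some library. The 12 choroid plexus markers, 2 of them at 0 in some library, summed to 2283 FPKM in Tshr-/- library 4, against 5.23 to 91.7 FPKM in each other library. In bulk tissue, fewer cells of a type and less RNA per cell cannot be told apart.

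Libraries did not overlap between genotypes, and were lower in Tshr-/-, for 6.45% of the 31 genes, against 1.76% of all tested genes. These shares are not matched for level or spread. The genes without overlap were Hnrnpc and Hnrnpm, both lower in Tshr-/-. The 250 bases before the RefSeq start of each (build GRCm38.p6, minus strand, chr14:52104022-52104271 and chr17:33685459-33685708) are shown to let the promoters of this pair be set side by side, with searched motifs in capitals. The RefSeq start of Hnrnpm lies inside the span that the authors' table gives the gene.
Hnrnpc: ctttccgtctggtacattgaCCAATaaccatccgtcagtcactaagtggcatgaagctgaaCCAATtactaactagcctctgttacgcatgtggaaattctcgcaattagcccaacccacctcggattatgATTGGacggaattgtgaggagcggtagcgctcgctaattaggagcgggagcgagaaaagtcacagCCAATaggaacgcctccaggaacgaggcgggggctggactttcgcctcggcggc
Hnrnpm: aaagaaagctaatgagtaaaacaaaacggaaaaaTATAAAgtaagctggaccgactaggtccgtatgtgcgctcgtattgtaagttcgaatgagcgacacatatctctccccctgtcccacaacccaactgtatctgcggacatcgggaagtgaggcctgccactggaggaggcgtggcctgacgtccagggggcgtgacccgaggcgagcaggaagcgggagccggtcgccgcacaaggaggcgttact
The motifs searched on both strands were the TATA box (TATAAA), the CCAAT box (CCAAT), the GC box (GGGCGG), an ETS core (CCGGAAG), the cyclic AMP element (TGACGTCA) and an NRF1 element (GCATGCGC). The capitals in Hnrnpc are 4 CCAAT boxes, 1 of them on the other strand, and those in Hnrnpm are 1 TATA box far from the start. At least 4 CCAAT boxes stood in 0.840% of the 32851 RefSeq promoter windows of this length, and in a window of 4 of the 29 Srsf and Hnrnp genes that RefSeq's table holds (11 Srsf and 18 Hnrnp). At least 1 was found for 16 of the 29 genes (3 Srsf and 13 Hnrnp) and in 33.8% of all windows. The GC box, absent from both sequences shown, was found for 24 of the 29 genes and in 32.7% of all windows. Promoters of the splicing factor genes held a median of 23 CpG dinucleotides, against 6 over all windows, with 17 in Hnrnpc and 19 in Hnrnpm. A gene with several starts was counted once if any of its windows matched, and a match is a run of letters only. The 29 genes had 41 windows, so their shares per gene and the shares per window are unlike measures. The background of all RefSeq windows was not matched for level, so none of these contrasts is particular to splicing factor genes.

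Levels were high for both families. Hnrnpa0 and Hnrnpa1, members of the A/B group of hnRNPs that often silence exons, led at means of 106 and 92.7 FPKM over the 10 libraries. Hnrnpc, which packages nascent RNA at runs of uridines, and Hnrnpa2b1, a transport and splicing factor, followed at 63.7 and 62.4 FPKM. The highest SR gene was Srsf5 with 57.8 FPKM, and it alone made 22.6% of the summed Srsf level. Srsf9 and Srsf7 came next at 34.9 and 34.6 FPKM. The median gene mean was 21.8 FPKM among the Srsf and 35.8 FPKM among the Hnrnp genes, against 5.05 FPKM over all tested genes.

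Most neighbours in the order overlapped. Between 26 of the 30 neighbouring pairs the ranges over libraries overlapped. The 4 gaps lay between Hnrnpa1 and Hnrnpc, between Hnrnpu, a nuclear scaffold protein, and Srsf2, between Srsf3 and Srsf6, and between Hnrnpll and Hnrnpr. Within each library, 5 of the overlapping pairs kept their order in all 10, namely Hnrnpul2 over Hnrnpab, Hnrnpdl over Hnrnph1, Hnrnpd over Hnrnpul1, Hnrnph3 over Srsf10 and Srsf10 over Srsf4. Srsf2, Srsf1 and Srsf3, the SR proteins SC35, SF2 and SRp20, averaged 27.6, 23.5 and 21.8 FPKM. The G-run binding proteins of the H and F group spread from 37.5 FPKM for Hnrnph1 through 27.3 for Hnrnph2 and 14.3 for Hnrnpf to 11.9 for Hnrnph3. At the low end were Srsf10 (9.59 FPKM), a repressor when dephosphorylated, Srsf4 (7.65 FPKM) and Srsf12 (6.62 FPKM), an SR-related protein of limited tissue range. Hnrnpll, known for CD45 splicing in lymphocytes, and Hnrnpr, which is known to bind actin mRNA in motor axons, closed the list at 5.71 and 4.41 FPKM.

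**Figure D1:**
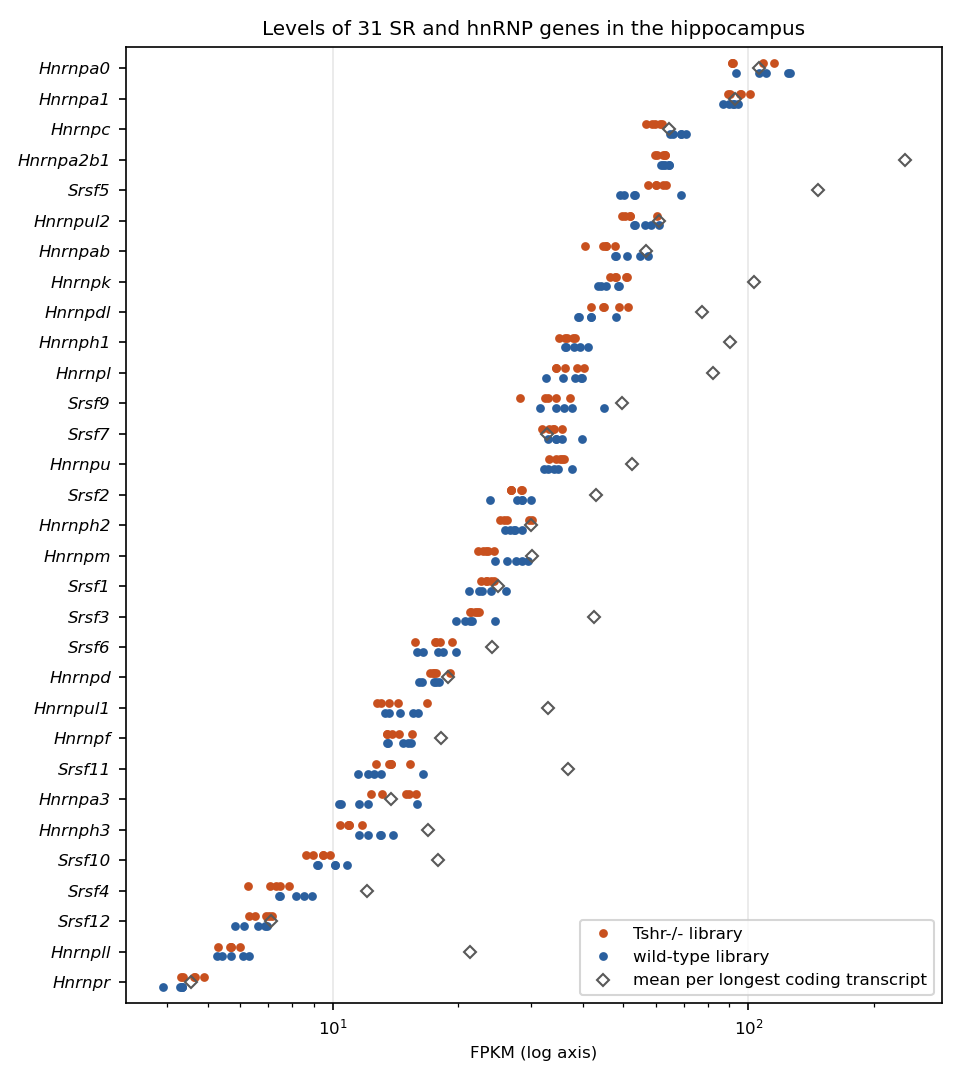
FPKM of the 31 Srsf and Hnrnp genes on a log axis, 1 point per library (Tshr-/- above, wild type beneath, n = 5 each), ordered by the mean of 10 libraries; diamonds give the mean rescaled to the longest GENCODE vM21 coding transcript. Levels run from 4.41 FPKM for Hnrnpr to 106 for Hnrnpa0, and rescaling sets Hnrnpa2b1 at 238.

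The order depended on the gene length used. The authors' length equalled the merged exons of all GENCODE vM21 transcripts for 25 of the 31 genes, retained introns included, and was a median of 1.42 times the longest coding transcript. Set to that transcript, Hnrnpa2b1 moved to the top at 238 and Srsf5 to second at 147, both above Hnrnpa0 at 106. Hnrnpll, whose merged exons of 11677 bases are 3.75 times its longest coding transcript, moved to rank 23 at 21.4. Hnrnpr remained the lowest at 4.57. A length common to both genotypes cancels in their difference, so the comparison of genotypes is not touched by it.

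Transcripts annotated for nonsense-mediated decay were common in both families. GENCODE vM21 lists at least 1 for 9 of 11 Srsf genes (81.8%) and 10 of 20 Hnrnp genes, against 27.6% of 13002 tested protein-coding genes. Among tested protein-coding genes at or above the level of Hnrnpr the share was 27.7%. The median number of annotated transcripts was 7 for the Srsf and 8 for the Hnrnp genes, against 5 for the tested protein-coding genes. The shares were not adjusted for this number. The annotated share for retained introns was 72.7% and 70.0% in the Srsf and Hnrnp genes and 57.1% in all tested protein-coding genes. Gene totals add these transcripts to the coding ones, and the table does not divide them.

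Between genotypes, none of the 31 genes passed the test (limma on log2(FPKM + 0.1), Benjamini-Hochberg adjusted over the 15471 tested genes, called below 0.05). Of all tested genes 0.0129% were called, each of them lower in Tshr-/-. The smallest adjusted p among the 31 was 0.174. At an unadjusted limma p below 0.05, 5 genes were lower in Tshr-/- (16.1% of the 31, against 8.38% of all tested genes) and 0 were higher (against 4.65%). The 5 were Hnrnpm, Hnrnph3, Hnrnpab, Hnrnpc and Srsf4. With wild-type library 4 left out, 3 genes were higher at that p, namely Srsf5, Hnrnpdl and Srsf11. Quantile normalization gave 5, namely Hnrnpa1, Hnrnpa3, Hnrnpdl, Hnrnpk and Srsf5. The shares of all tested genes at that p in these other fits are not given, so these counts have no background. Libraries of the genotypes did not overlap for 2 genes lower in Tshr-/- (6.45%, against 1.76% of all tested genes) and for 0 higher ones (against 0.911%). The 31 genes had a higher median level than all tested genes (27.3 against 5.05 FPKM) and a smaller median residual SD (0.090 against 0.160). Shares for tested genes of like level and spread are not given, so no excess can be read from these counts.

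**Figure D2:**
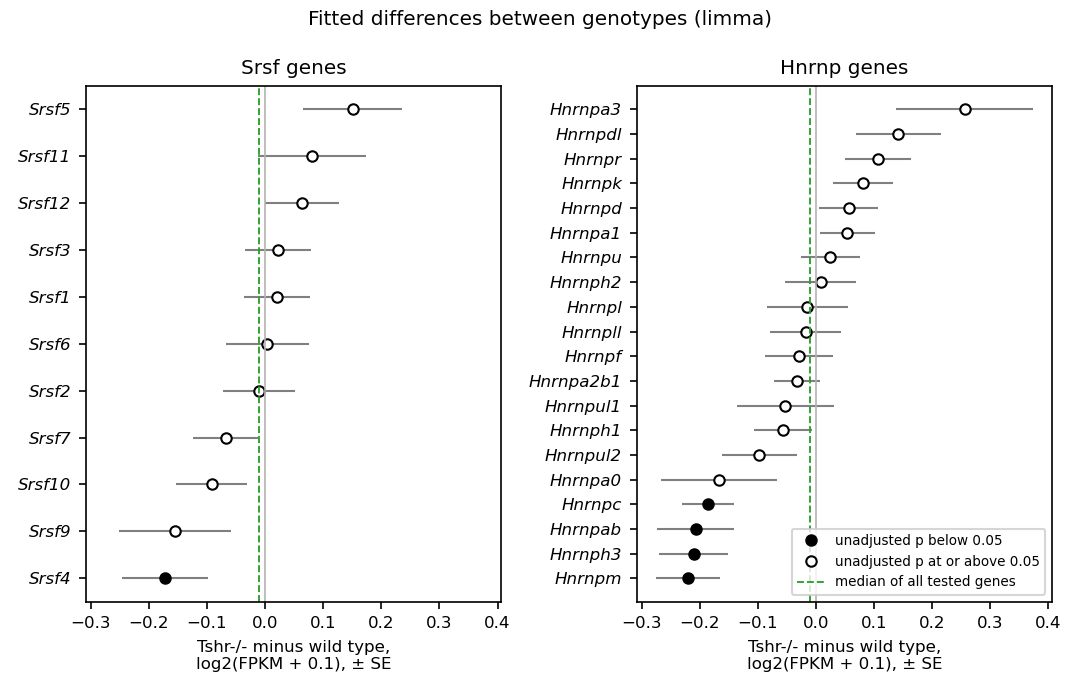
Fitted Tshr-/- minus wild-type difference of each Srsf gene (left) and Hnrnp gene (right) on the log2(FPKM + 0.1) scale, with its standard error; filled points have an unadjusted limma p below 0.05 and the dashed line is the median of all tested genes (-0.01). Filled points are the 5 genes from -0.22 (Hnrnpm) to -0.17 (Srsf4), and none lies to the right of 0.

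Hnrnpc (ENSMUSG00000060373, chromosome 14, 52073380 to 52104028, minus strand, mm10) encodes a core hnRNP that competes with the splicing factor U2AF for uridine runs. It stood at 62.1, 56.6, 59.5, 61.1 and 58.8 FPKM in Tshr-/- libraries 1 to 5, and at 68.7, 69.0, 70.7, 64.9 and 65.95 FPKM in wild-type libraries 1 to 5. Each Tshr-/- library was below each wild-type library. Means were 59.6 ± 2.11 and 67.8 ± 2.36 FPKM (SD), apart by -0.19 ± 0.04 on the log2 scale (SE, limma adjusted p = 0.174).

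Hnrnpm (ENSMUSG00000059208, chromosome 17, 33646233 to 33686860, minus strand) encodes a splicing regulator that binds GU-rich RNA. It had 22.3, 23.3, 23.6, 24.4 and 23.0 FPKM in Tshr-/- libraries 1 to 5, against 28.5, 24.6, 29.4, 27.5 and 26.2 FPKM in the wild-type libraries. The groups did not overlap, though Tshr-/- library 4 came close to wild-type library 2. The log2 difference was -0.22 ± 0.06 (SE, limma adjusted p = 0.179). In GENCODE vM21, 14.7% of its 7956 exon bases are shared with March2 on the same strand. The authors' length of 4701 bases comes from another exon model, so how far this touches the deposited value is not known.

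Hnrnph3 and Hnrnpab overlapped between the genotypes by 1 library each. Hnrnph3, of the G-run binding group, had 11.0, 10.9, 10.4, 10.9 and 11.8 FPKM in Tshr-/- libraries 1 to 5 and 14.0, 11.6, 12.2, 13.0 and 13.1 FPKM in wild-type libraries 1 to 5. Tshr-/- library 5 lay above wild-type library 2, and the other 4 wild-type libraries were above all of Tshr-/- (log2 difference -0.21 ± 0.06, limma adjusted p = 0.204). Hnrnpab, a protein of mRNA transport and translation, had 47.7, 45.5, 44.7, 40.5 and 45.5 FPKM in Tshr-/- libraries 1 to 5 and 54.7, 47.7, 57.4, 47.9 and 51.2 FPKM in the wild-type libraries. Here too 4 wild-type libraries exceeded every Tshr-/- library, while wild-type library 2 did not (log2 difference -0.21 ± 0.07, limma adjusted p = 0.246). The library kit does not mark strand, and 29.1% of the exon bases of Hnrnpab lie opposite exons of Phykpl, so its value is uncertain.

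Hnrnpc, Hnrnpm, Hnrnph3 and Hnrnpab had an unadjusted limma p below 0.05 in all 22 alternatives run, and an adjusted p above 0.05 in each. They were picked for that unadjusted p in the reported fit, and the alternatives reuse the same libraries. The count is thus no independent evidence, and the share of other genes that persist so is not given. With the thalamus and habenula markers as a covariate the log2 differences of these 4 genes were -0.18, -0.19, -0.20 and -0.21. Quantile normalization brought them to -0.11, -0.15, -0.18 and -0.13. Hippocampal neuron markers were lower in Tshr-/- for 9 of 10 genes, and their part in these differences was not tested.

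Srsf4 (ENSMUSG00000028911, chromosome 4, 131873617 to 131901706, plus strand), which encodes one of the largest SR proteins, was the only SR gene with an unadjusted p below 0.05. It had 6.27, 7.29, 7.47, 7.07 and 7.86 FPKM in Tshr-/- libraries 1 to 5, against 8.54, 7.42, 8.92, 8.18 and 7.49 FPKM in wild type. The ranges overlapped, with wild-type libraries 2 and 5 under Tshr-/- library 5. Its log2 difference was -0.17 ± 0.07 (SE, limma adjusted p = 0.363). The unadjusted p stayed below 0.05 in 12 of 22 alternatives. Exons of Gm12992 lie opposite 43.0% of its exon bases, so this value is uncertain as well.

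**Figure D3:**
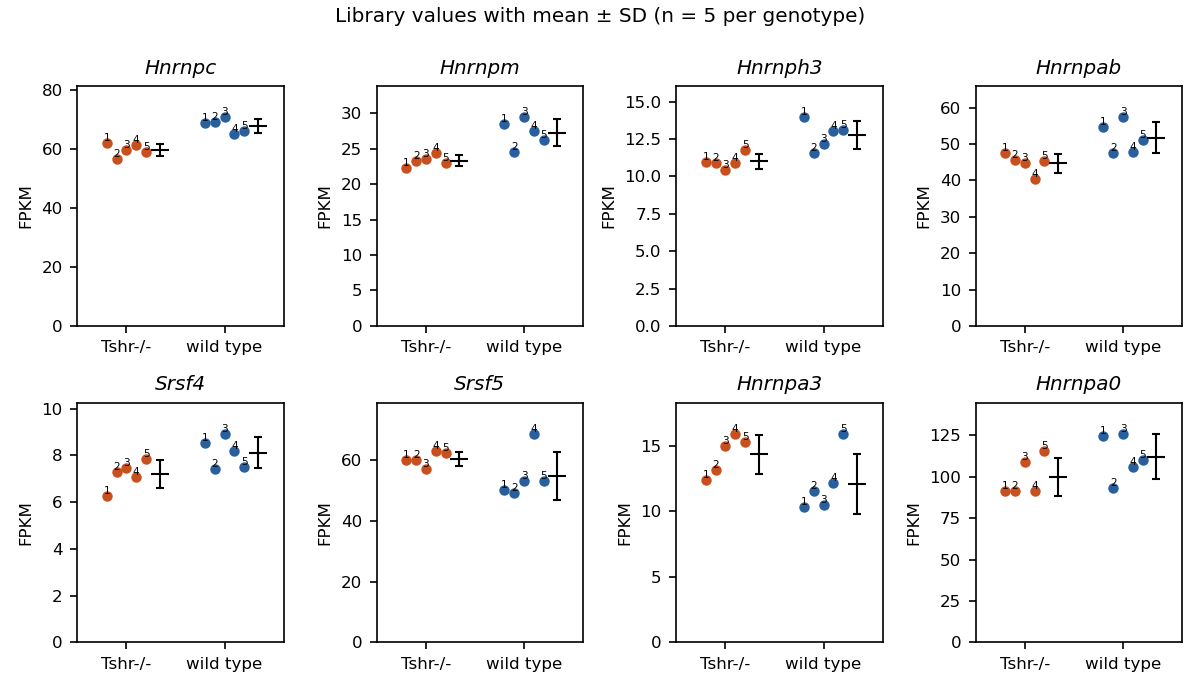
FPKM of 8 genes in each library (points, numbered by library within the genotype), with mean ± SD at the right of each group (n = 5 per genotype). Hnrnpc and Hnrnpm do not overlap between genotypes, and in Srsf5 wild-type library 4 (68.8 FPKM) stands above all other libraries.

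In the reported fit the genes higher in Tshr-/- did not pass at an unadjusted p of 0.05. Hnrnpa3, an A/B group protein, had 12.4, 13.2, 15.0, 15.9 and 15.3 FPKM in Tshr-/- libraries 1 to 5 and 10.3, 11.6, 10.5, 12.2 and 15.9 FPKM in wild-type libraries 1 to 5. Wild-type library 5 was the highest of the 10, and the other 4 wild-type libraries were all below every Tshr-/- library (log2 difference 0.26 ± 0.12, limma adjusted p = 0.390). Without wild-type library 5 the difference was 0.36 (limma adjusted p = 0.238), but that library was picked for its own high value. Hnrnpdl, related to the decay factor AUF1, had 44.9, 41.7, 44.7, 48.7 and 51.2 FPKM in Tshr-/- and 41.7, 39.0, 41.8, 48.1 and 39.1 FPKM in wild type. Its groups overlapped, through Tshr-/- library 2 at the low end and wild-type library 4 at the high end (log2 difference 0.14 ± 0.07, limma adjusted p = 0.436). Over the 22 alternatives the unadjusted limma p was below 0.05 in 6 for Hnrnpa3 and in 5 for Hnrnpdl. With the thalamus and habenula markers as a covariate the log2 difference of Hnrnpdl was 0.20 (limma adjusted p = 0.194).

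Of the 31 genes, Hnrnpa3 had the largest share of the combined reads of gene and copies assigned to pseudogene copies. GENCODE vM21 holds 24 pseudogenes whose transcripts match its longest coding transcript over at least 300 bases at 95% identity or more. They held 35.2% of the combined reads of gene and copies, with 32.9% ± 4.04 per Tshr-/- library and 37.8% ± 4.64 per wild-type library (SD). With the copies' reads added at the length of Hnrnpa3, the level was 21.3 ± 1.22 FPKM in Tshr-/- and 19.3 ± 2.14 FPKM in wild type. The log2 ratio of means was then 0.14, against 0.25 for Hnrnpa3 alone. The handling of reads that match several places is unknown (not given in the sources used here), so its value is uncertain. Copies also held 11.4% of the combined reads for Hnrnpk and 6.45% for Hnrnpa1, 3.38% for Srsf5, and 0.0736% to 1.84% for the 6 other genes that had any, while 21 genes had none.

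**Figure D4:**
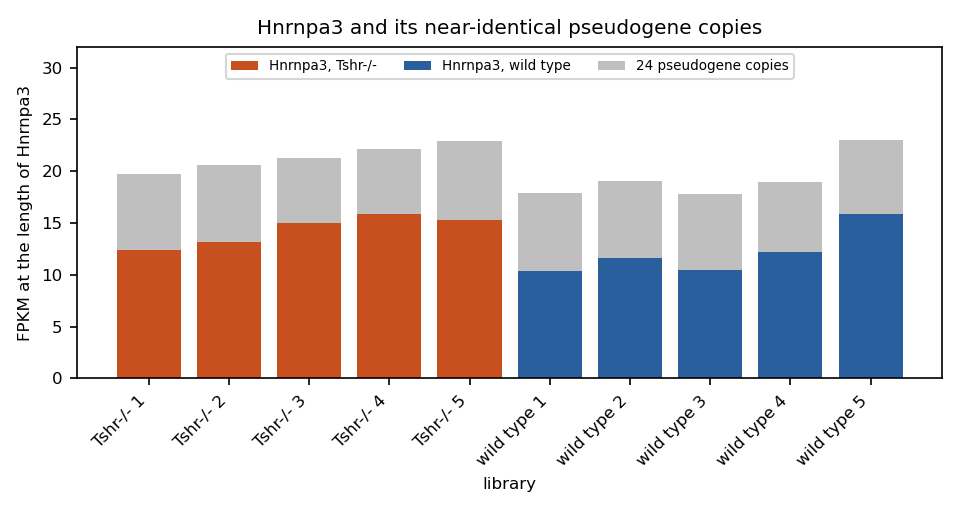
FPKM of Hnrnpa3 in each library (coloured) and the reads of its 24 pseudogene copies expressed at the same length (grey). The coloured part averages 14.3 FPKM in Tshr-/- and 12.1 FPKM in wild type, and the whole bar 21.3 and 19.3.

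The most expressed Hnrnp genes and the closest SR genes overlapped between genotypes. Hnrnpa0 had 91.5, 91.6, 109, 91.3 and 115 FPKM in Tshr-/- and 125, 93.4, 126, 106 and 110 FPKM in wild type, with overlap in both directions (log2 difference -0.17 ± 0.10, limma adjusted p = 0.498). Hnrnpa1 averaged 94.4 ± 4.63 FPKM in Tshr-/- and 90.9 ± 2.84 FPKM in wild type (SD, n = 5 each). Hnrnpa2b1 was the steadiest of the 31 genes, at 59.7 to 63.1 FPKM in Tshr-/- and 61.5 to 64.4 FPKM in wild type, with a residual SD of 0.033 on the log2 scale. Among the SR genes the closest means were those of Srsf6 (17.7 ± 1.26 and 17.7 ± 1.54 FPKM), Srsf2 (27.5 ± 0.926 and 27.7 ± 2.31) and Srsf1 (23.6 ± 0.680 and 23.3 ± 1.80). Exons of Mettl23 and Mfsd11 lie opposite 25.3% of the exon bases of Srsf2, so its value is uncertain too. Srsf12 had 6.77 ± 0.361 FPKM in Tshr-/- and 6.48 ± 0.480 FPKM in wild type (limma adjusted p = 0.696).

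The remaining genes overlapped between genotypes in each case. Hnrnpk, which binds C-rich RNA and DNA, had 48.7 ± 2.01 FPKM in Tshr-/- and 46.1 ± 2.52 FPKM in wild type (SD, n = 5 each), and Hnrnpd, which binds AU-rich elements, 17.8 ± 0.790 and 17.1 ± 0.869. Hnrnpr had 4.58 ± 0.242 and 4.25 ± 0.195 FPKM, with 4 Tshr-/- libraries above every wild-type library. In the G-run group, the relatives of Hnrnph3 were closer between genotypes in mean, as Hnrnph1 had 36.8 ± 1.296 and 38.3 ± 2.11 FPKM, Hnrnph2 27.4 ± 2.32 and 27.2 ± 0.973, and Hnrnpf 14.2 ± 0.842 and 14.5 ± 0.889. Whether the differences of these 4 genes are unequal was not tested. Exons of other genes lie opposite 26.5% of the exon bases of Hnrnpf, so its value is uncertain too. The CA-repeat binders Hnrnpl (36.8 ± 2.56 and 37.2 ± 3.03 FPKM) and Hnrnpll (5.67 ± 0.250 and 5.75 ± 0.423) were close in mean. The scaffold protein Hnrnpu had 34.9 ± 1.08 FPKM in Tshr-/- and 34.3 ± 2.07 FPKM in wild type, and its relatives Hnrnpul1 and Hnrnpul2 14.1 ± 1.65 against 14.6 ± 1.17 and 52.8 ± 4.32 against 56.4 ± 3.36.

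Among the SR genes, Srsf9 had 32.4, 28.3, 34.4, 37.1 and 32.9 FPKM in Tshr-/- libraries 1 to 5 and 35.9, 31.6, 37.6, 44.9 and 34.4 FPKM in wild-type libraries 1 to 5. The ranges overlapped widely (log2 difference -0.15 ± 0.10, limma adjusted p = 0.519). The mRNA export factors Srsf3 and Srsf7 had 21.9 ± 0.485 against 21.6 ± 1.77 FPKM and 33.7 ± 1.37 against 35.4 ± 2.56 FPKM in Tshr-/- and wild type. Srsf10 had 9.28 ± 0.492 and 9.90 ± 0.707 FPKM, and Srsf11, an SR-related protein, 13.8 ± 0.938 and 13.2 ± 1.96 FPKM. The SD was larger in wild type for each of the 11 SR genes, which share the same libraries, and this was not tested. Wild-type library 4 was the highest of its genotype for 5 of them and the lowest for 0.

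As families, the Srsf genes had a median log2 difference of 0.0042 and the Hnrnp genes one of -0.023. The median was -0.010 for all tested genes and -0.037 for the 8284 at or above the level of Hnrnpr. Neither family median kept its sign. The Srsf median ran from -0.032 to 0.021 with 1 library left out, and the Hnrnp median was 0.034 with quantile normalization. Of the 31 genes 14 were above 0 (45.2%, against 46.7% of all tested genes) and 17 below (54.8%, against 53.3%), and with quantile normalization 11 were below. The Srsf genes summed to 255 ± 6.99 FPKM in Tshr-/- libraries and 255 ± 20.0 FPKM in wild-type libraries. For the Hnrnp genes the sum was 749 ± 30.2 in Tshr-/- and 775 ± 30.3 in wild type (SD, n = 5 each), a gap smaller than the spread between libraries. The median residual SD of the 31 genes was 0.090 on the log2 scale, against 0.160 for all tested genes. It was 0.123 for the 8284 tested genes at or above the level of Hnrnpr. That set is not matched to the median level of the 31 genes, 27.3 FPKM. Among the lists of partner genes given below, nonsense-mediated decay factors had 0.086 and the other lists 0.104 to 0.152. Low variation was thus not particular to the 31 genes.

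Wild-type library 4 was the highest of all 10 libraries for 5 of the 11 Srsf genes (45.5%, against 12.5% of all tested genes) and had the largest Srsf sum, 286 FPKM against 232 to 264 in the other 9. Srsf5, first described as a growth-induced gene of regenerating rat liver, had 60.1, 60.04, 57.2, 63.2 and 62.3 FPKM in Tshr-/- and 50.1, 49.2, 53.2, 68.8 and 53.3 FPKM in wild type. Without wild-type library 4 every Tshr-/- library of Srsf5 was above every wild-type library, and its log2 difference of 0.15 (limma adjusted p = 0.475) became 0.23 (adjusted p = 0.160). Wild-type library 4 was left out here for its own high value of Srsf5, so the separation follows from that choice. The share of all tested genes that separate without it is not given. The same library had the highest Malat1, a noncoding RNA of nuclear speckles, at 277 FPKM against 121 to 167 in the other 9, and the highest Tra2a, a splicing activator, at 13.0 against 9.33 to 11.4. Malat1 and Tra2a were picked after their values were seen, and their part in the Srsf levels was not tested.

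Tshr-/- library 2 was the lowest of its genotype for 4 of 11 Srsf and 8 of 20 Hnrnp genes (36.4% and 40%, against 22.3% of all tested genes). Wild-type library 2 was the lowest of its own for 7 and 12 (63.6% and 60%, against 22.4%). Their thalamus and habenula markers summed to 286 and 96.2 FPKM, against 23.7 to 160 FPKM in the other 8 libraries. Wild-type library 5, at 144 FPKM, was the lowest of its genotype for 1 Srsf and 0 Hnrnp genes. The part of these markers was not tested. Tshr-/- library 5 was the highest of its genotype for 12 of 20 Hnrnp genes (60%, against 25.2% of all tested genes). After removal of genotype means, the pairs most alike over the 10 libraries were Srsf1 with Hnrnpll (r = 0.939), Srsf1 with Hnrnpu (0.912) and Srsf6 with Srsf9 (0.899). At the other end Hnrnpd, the decay factor AUF1, ran against Hnrnpm (-0.871) and Srsf4 (-0.866). These values describe points that share library and depth. The median over pairs was 0.118 within Srsf and 0.206 within Hnrnp.

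**Figure D5:**
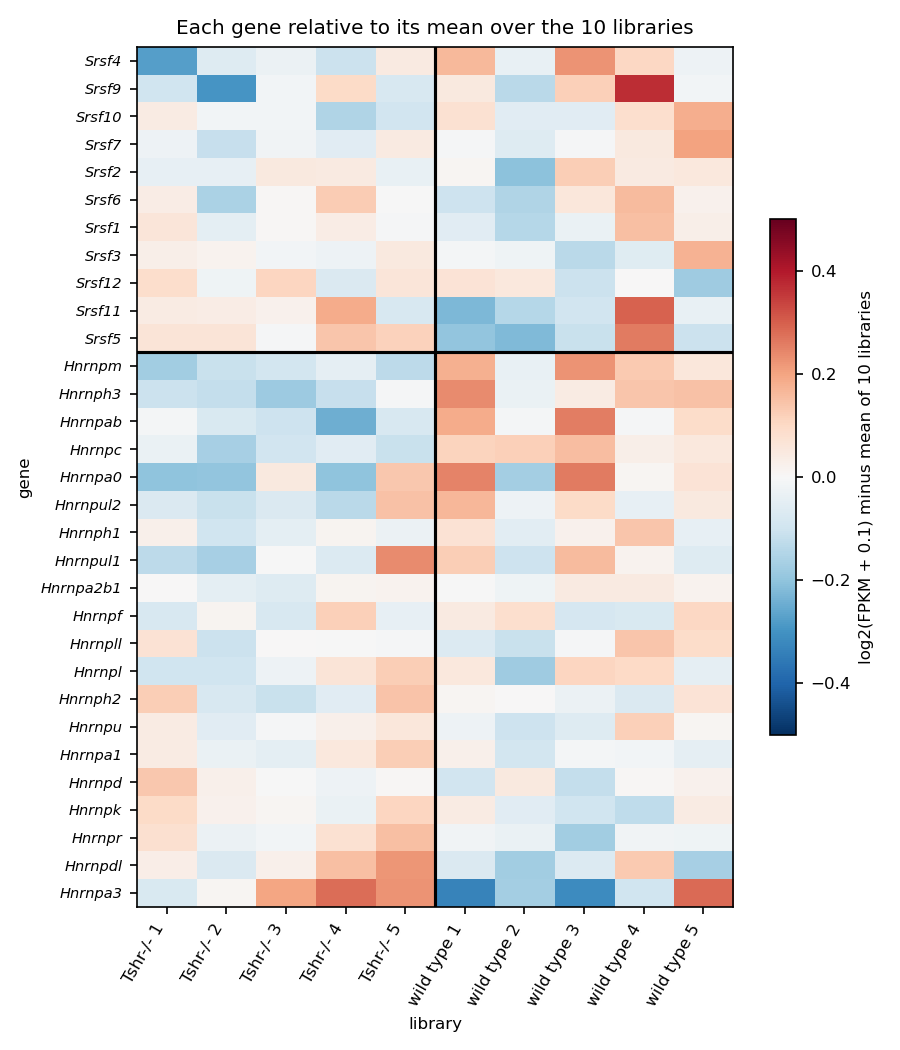
Each Srsf gene (upper block) and Hnrnp gene (lower block) in each library, as log2(FPKM + 0.1) minus its mean over the 10 libraries, Tshr-/- left and wild type right. Wild-type library 4 is high for 5 Srsf genes, and the lower block opens with the 4 Hnrnp genes that were lower in Tshr-/- at an unadjusted p below 0.05.

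The partners of these proteins gave no called gene either. Median log2 differences were -0.03 for SR kinases, phosphatase subunits and importers, 0.03 for SR-related genes, 0.02 for other hnRNPs and RNA-binding proteins, -0.03 for the spliceosome core and -0.07 for neuronal regulators, beside -0.01 for all tested genes. Among 19 genes of SR protein kinases, phosphatase subunits and importers, 0 were called, and 2 were lower in Tshr-/- at an unadjusted limma p below 0.05 (10.5%, against 8.38% of all tested genes). These were the kinase Dyrk1a (9.11 ± 0.348 against 10.2 ± 0.505 FPKM) and the phosphatase subunit Ppp1cc (40.1 ± 3.47 against 45.7 ± 3.12). The nuclear kinases of SR proteins Clk1 and Clk4, picked for their role, had log2 differences of 0.03 and 0.02. Of 28 SR-related genes none was below that p in either direction, the nearest being Srrm3 (10.7 ± 1.76 against 12.9 ± 1.87 FPKM) and Luc7l2 (12.7 ± 0.983 against 11.3 ± 1.32).

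Of 28 hnRNPs under other names and related RNA-binding proteins, 0 were called, with 2 higher (7.14%, against 4.65% of all tested genes) and 1 lower (3.57%, against 8.38%) at that p. Khsrp, a splicing and decay factor, had 27.4 ± 3.79 FPKM in Tshr-/- and 34.3 ± 4.24 FPKM in wild type. Ptbp1, the repressor of neuronal exons in non-neuronal cells, had 5.29 ± 0.552 and 4.66 ± 0.166 FPKM, and Rbmx, also called hnRNP G, 14.0 ± 0.748 and 12.6 ± 1.26 FPKM. The part of the meninges and fibroblast markers, higher in Tshr-/- as given above, was not tested. In the spliceosome core 0 of 48 genes were called, and 4 were lower at that p (8.33%, against 8.38% of all tested genes, so at the background share), with the smallest p in the snRNP subunits Snrnp40 (5.07 ± 0.276 against 5.80 ± 0.274 FPKM) and Prpf3 (2.76 ± 0.172 against 3.24 ± 0.231).

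Of the neuronal and tissue splicing regulators 22 of 26 were tested, 0 called and 4 lower at that p (18.2%, against 8.38% of all tested genes). Rbfox1, which reads GCAUG sites in neurons, had 93.0 ± 12.5 FPKM in Tshr-/- and 114 ± 8.65 FPKM in wild type, and Khdrbs3, which regulates neurexin splicing, 74.0 ± 8.44 and 89.1 ± 6.76 FPKM. Neuron markers summed to 1270 to 1492 FPKM in Tshr-/- and 1481 to 1656 FPKM in wild type, a list in which 3 of 8 genes (Stmn2, Syt1 and Tubb3) had the higher mean in Tshr-/- and Camk2a made most of the gap (547 ± 99.2 against 681 ± 88.4 FPKM). The part of these markers was not tested. Nonsense-mediated decay factors had 14 of 17 genes below 0 (82.4%, against 53.3% of all tested genes) and a median of -0.10, with 0 called and 2 lower at that p (11.8%, against 8.38%). Upf2, a core decay factor, was the only one of the genes in these 6 lists without overlap between genotypes, where 1.76% of all tested genes were lower without overlap. It stood at 10.02 ± 0.790 FPKM in Tshr-/- and 11.9 ± 0.646 FPKM in wild type (limma adjusted p = 0.187).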

How the data were processed

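Messenger RNA of mouse hippocampus was sequenced in 10 libraries. Per the labels' protocols, frozen tissue was extracted with Trizol and libraries made from 3 ug of RNA with a NEBNext Ultra kit. The authors deposited FPKM values per gene with gene lengths. Alignment with HISAT2 2.0.5 to mm10 and counting with featureCounts 1.5.0-p3 are listed in the submitters' processing notes (annotation release: not given in the sources used here). Read numbers were rebuilt as whole multiples of FPKM times length (100% of values within 0.01 of a read).

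The 15471 genes that averaged 0.5 FPKM or more were tested on log2(FPKM + 0.1) with limma 3.58.1 in R 4.3.3 (mean-variance trend), a scale on which differences of low genes are understated. The fit was tested on simulated data, where 15 of 50 genes set to differ by 1.3-fold were called. Smaller differences were not simulated. Copies were found with BLAST 2.17.0. Coordinates are those of the authors' table, and 26 of the 31 genes have the same ones in GENCODE vM21. The members and lists were chosen with earlier results of these data known. Values by library are given for up to 4 genes per family and direction at an unadjusted p below 0.05, failing that the 2 of smallest p, and for the 2 most expressed per family. Hnrnpa1 and Srsf12, which fall under this rule, are given by mean and SD only. From each partner list up to 3 genes of smallest p could be named.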

Additional observations from a re-analysis of the deposited data

Results flagged for a closer look

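In 62 groups of 5 libraries (31 genes in 2 genotypes) 3 had a library whose gap to the next exceeded 0.71 of the range, where chance alone gives about 1 in 20. Srsf5 was 68.8 FPKM in wild-type library 4, against 49.2 to 53.3 FPKM in the other 4 wild-type libraries. Hnrnpul2, a relative of the scaffold protein Hnrnpu, was 60.3 FPKM in Tshr-/- library 5, against 49.5 to 51.9 FPKM in the other Tshr-/- libraries. Without that library, picked for its own high value, the log2 difference of -0.10 for Hnrnpul2 was -0.15 (limma adjusted p = 0.277). Hnrnpr was 3.90 FPKM in wild-type library 3, against 4.30 to 4.35 FPKM in the other wild-type libraries.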

How the results depend on the processing

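No Srsf or Hnrnp gene was called in any of the 22 alternatives. The count of genes lower at an unadjusted p below 0.05 stayed between 4 and 7. The shares of all tested genes at that p in the alternatives are not given for either direction, so such counts have no background. Over all genes the 2 calls became 14 with a pseudocount of 0.01, 4 with no filter or quantile normalization, 13 with a filter at 1 FPKM or robust empirical Bayes, 17 among protein-coding genes, 1 with no trend, 9 with limma voom, 8 with the thalamus covariate, and 0 to 9 with 1 library left out. Splicing factor genes higher at that p, 0 in the reported fit, were 5 with quantile normalization, 6 with voom, 1 among protein-coding genes, with the replicate block and with the thalamus covariate, and 0 to 3 with 1 library left out, the 3 without wild-type library 4. Quantile normalization moved the Hnrnp median to 0.034, and voom, which divided by the rebuilt reads alone and moved the median of all tested genes to 0.059, set it at 0.046 and the Srsf median at 0.075. Of the 31 genes 19 kept their sign throughout. Signs turned for Hnrnpa2b1 (0.047 with quantile normalization, 0.037 with voom), Hnrnpf (0.011, 0.039), Hnrnph1 (0.022, 0.013), Hnrnpl (0.059, 0.055, and 0.036 with the covariate), Srsf2 (0.063, 0.061 and 0.014) and Srsf7 (0.0077, 0.0026). With voom Hnrnpll was 0.054 and Hnrnpul1 0.017, and with the covariate Hnrnpul1 was 0.0063, Hnrnph2 -0.00011 and Srsf3 -0.0036. Leaving out 1 library gave ranges of -0.0266 to 0.0370 for Hnrnph2, -0.0613 to 0.01004 for Hnrnpl, -0.0472 to 0.0144 for Hnrnpll, -0.0123 to 0.0609 for Srsf1, -0.0625 to 0.0195 for Srsf2, -0.00847 to 0.0688 for Srsf3 and -0.0324 to 0.0447 for Srsf6. Tshr ranged from -0.0345 to -0.0230 FPKM, with an exact permutation p from 0.0159 (without Tshr-/- library 4) to 0.111, and 0.188 with the replicate block. The cause was not tested.

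Libraries of equal number were not paired by the labels, and their deviations correlated at -0.065 to 0.296. With the replicate block 3 genes of the table were called. At an unadjusted p below 0.05 the block added Hnrnpa3 as higher (limma adjusted p = 0.281) and Srsf9 as lower (adjusted p = 0.264), and it lost Srsf4 (adjusted p = 0.405). What share of differences of this size the test would call was not tested.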
